A study of Mus musculus with 8 samples.

Results

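The outer coat of an artery, the adventitia, holds fibroblasts that build its collagen-rich matrix and a subset of them with progenitor properties. Those progenitors are commonly recognised by Pi16, Dpp4, Ly6a (the gene of Sca-1), Ly6c1 and Cd34, and the wider adventitial fibroblast population by Dpt, Gsn, Scara5, Clec3b and Cd248. Adventitial Sca-1 cells lie in a zone of hedgehog signalling and can give rise to fibroblasts and, in injury models, to other cells of the wall. The 10 genes described here were chosen by name, as the rows of the deposited tables whose symbol matched a fixed set of adventitial fibroblast and progenitor markers. All 10 were found among 25526 listed genes, and all 10 passed the filter on low counts, as did 13978 genes in total. The rule uses the symbol only.

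The data are RNA sequencing counts from the aorta of male mice of the genotype Fbn1C1041G/+, carriers of 1 copy of a missense allele of fibrillin-1 used as a model of Marfan syndrome. There were 4 libraries from mice aged 12 weeks and 4 from mice aged 2 years. Every animal in both groups carried the allele, so no group here shows the aorta without it. The series set out to compare an age at which the aneurysm grows with an age at which growth has stopped. The labels do not give the aortic segment, whether the adventitia or the fat around it was trimmed, or whether animals were pooled, so p-values measure only the spread between these libraries. Total counts ranged from 16251986 to 33880690, and both of these extremes were 2-year libraries. CPM below are counts scaled to a library of 1000000 with trimmed-mean scaling (TMM). Log2 fold changes are 2 years over 12 weeks, with a standard error (SE), from edgeR's quasi-likelihood test adjusted over all genes tested, and a gene was called at an adjusted p below 0.05.

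The tissue label fits its markers in that smooth muscle contractile genes summed to between 19921 and 41464 CPM in every library. Endothelial genes summed to 451.5 to 897.8 CPM at 12 weeks and 477.4 to 626.7 CPM at 2 years. Libraries differed in other tissue: heart and skeletal muscle genes summed to 1204 CPM in 12 weeks replicate 3 and to between 89.0 and 403.4 CPM in the others. In 2 years replicate 3, mitochondrial transcripts took 10.3% of counts, against 4.14% to 7.33% elsewhere. The same library had the highest sums of mesothelial genes (591.9 CPM, against 134.2 to 232.4 CPM in the others) and of 12 pan-fibroblast genes (20482 CPM, against 9667 to 17411 CPM). Adipocyte genes were also highest there, at 900.7 CPM, but 12 weeks replicate 3 had 692.6 CPM and the range over the rest was 138.5 to 562.5 CPM. Fold changes across the genome also followed transcript length, short transcripts being relatively more abundant in the libraries at 2 years. Lengths here and below are those of the longest annotated coding transcript of a gene, which need not be the one expressed. The slope of log2 CPM on log2 length lay between 0.125 and 0.261 at 12 weeks and between -0.314 and -0.108 at 2 years. Each member is therefore given also with each library's trend on length and GC share removed, called the length adjustment here, wherever that changed its call or moved its value by over 1.5-fold.

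The adventitial markers did not move as a block. Ly6a, Ly6c1 and Cd34 rose at 2 years, Gsn and Pi16 fell, and Dpt, Dpp4, Scara5, Clec3b and Cd248 did not pass the threshold. That is 5 of 10 called, in a comparison in which 52.0% of all genes tested were called. For the 3 that rose the background is 25.8% of genes, and for the 2 that fell it is 26.2%. The share of members called was thus close to that of genes in general. The median log2 fold change of the 10 was 0.10, against -0.01 over all genes tested. In 4 members (Ly6a, Ly6c1, Cd34 and Gsn) the groups did not overlap, as was so for 49.6% of genes tested. The older libraries were all above the younger in 3 of them (background 24.3%) and all below in 1 (25.3%).

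**Figure D1:**
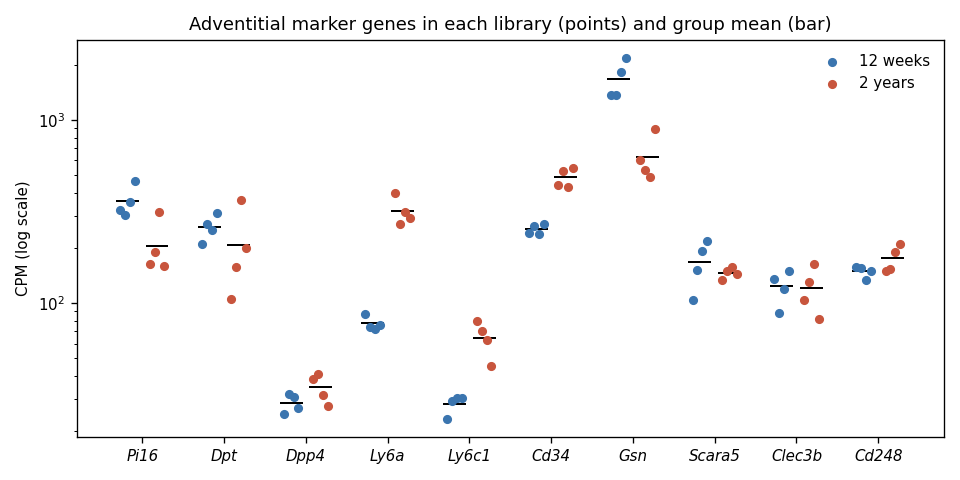
CPM on a log axis for each of the 10 marker genes, with a point for each library (blue, 12 weeks; red, 2 years) and a bar at the group mean. The groups separate for Ly6a, Ly6c1, Cd34 and Gsn, and overlap for the other 6 genes.

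Ly6a and Ly6c1 encode small proteins held on the outer face of the membrane by a lipid anchor, and belong to a gene family whose members resemble one another closely. Their sequences are shown so that the stretches they share, and those that tell them apart, can be seen. The first 120 coding bases of the GENCODE M21 transcripts of Ly6c1, its neighbour Ly6c2 and Ly6a follow, 5′ to 3′, with capitals at the 12 positions where the 3 genes are not all the same.
Ly6c1: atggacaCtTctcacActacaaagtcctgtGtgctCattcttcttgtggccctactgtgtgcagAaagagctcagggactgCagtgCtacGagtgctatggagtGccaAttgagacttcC
Ly6c2: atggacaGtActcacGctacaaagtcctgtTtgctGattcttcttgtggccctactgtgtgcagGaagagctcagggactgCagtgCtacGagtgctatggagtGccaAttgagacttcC
Ly6a: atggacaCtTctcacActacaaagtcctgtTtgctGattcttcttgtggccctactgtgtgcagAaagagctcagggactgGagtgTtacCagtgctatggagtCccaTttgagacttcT
In this window Ly6c2 differed from Ly6c1 at 6 bases and Ly6a differed from Ly6c1 at 8. Over the whole coding sequence Ly6c1 and Ly6c2 were 97.7% identical, and Ly6a and Ly6c1 81.8%. Of all 100-base words in the coding transcripts of Ly6c2, 14.9% also occurred in those of Ly6c1, while Ly6a shared 1.45% of its words with Ly6c1. At 50 bases the share for Ly6c2 was 30.8%. The handling of reads that match several genes is not given in the sources used here. The division of counts among the 3 genes is therefore uncertain.

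Ly6a gave the largest change of the 10 members with TMM scaling, though not after the length adjustment, where Gsn did (log2 fold change 1.2 for Ly6a and -1.39 for Gsn). Its CPM were 87.3, 74.0, 72.4 and 76.0 in 12 weeks replicates 1 to 4 and 399.1, 269.5, 313.0 and 289.6 in 2 years replicates 1 to 4. The lowest 2-year library stood well above the highest 12-week library. The mean rose from 77.4 ± 6.73 to 318 ± 57.0 CPM (SD, n = 4), or 4.11-fold (log2 fold change 2.04 ± 0.15 SE, adjusted p in edgeR = 2.63e-06). The length-adjusted change had an adjusted p of 0.000154. The Ly6a transcript is short, at 955 nt.

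Ly6c1 also rose. Its level was 23.3, 29.3, 30.3 and 30.2 CPM in the 12-week libraries and 79.5, 70.2, 63.1 and 45.2 CPM in the 2-year libraries. The groups did not overlap, and 2 years replicate 4 was the lowest of the older libraries. The mean went from 28.3 ± 3.36 to 64.5 ± 14.5 CPM, 2.28-fold (log2 fold change 1.19 ± 0.17 SE, adjusted p in edgeR = 0.000229). This call did not hold once transcript length was taken into account. Ly6c1 is 844 nt long, and after the length adjustment it stood at 0.28 on the log2 scale and was not called (adjusted p = 0.198).

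Ly6c2, which is not a member of the set and is known from inflammatory monocytes and T cells, behaved differently from Ly6c1 among the older libraries. It had 5, 5, 13 and 3 counts at 12 weeks and 1537, 589, 43 and 3159 counts at 2 years. In 2 years replicate 4 Ly6c2 was highest and Ly6c1 lowest, and in 2 years replicate 3 Ly6c2 was lowest. The ratio of Ly6c1 to Ly6c2 CPM was 1.81, 2.79, 22.6 and 0.412 in 2 years replicates 1 to 4. When the counts of Ly6a, Ly6c1 and Ly6c2 were summed as a single feature, the sum rose with a log2 fold change of 2.01 (SE 0.14, adjusted p in edgeR = 2.15e-06). Of the wider family, 11 of 24 other Ly6 and related genes were tested, of which 7 rose and 0 fell, against backgrounds of 25.8% and 26.2% of genes. Ly6c2 is among the 7 (adjusted p in edgeR = 0.00159), but over the alternatives its adjusted p reached 0.0909, with limma voom. Ly6e, an interferon-responsive member of the family and the most abundant of these at 2 years, rose from 131 ± 10.8 to 567 ± 62.9 CPM (4.32-fold, adjusted p in edgeR = 1.48e-06).

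**Figure D2:**
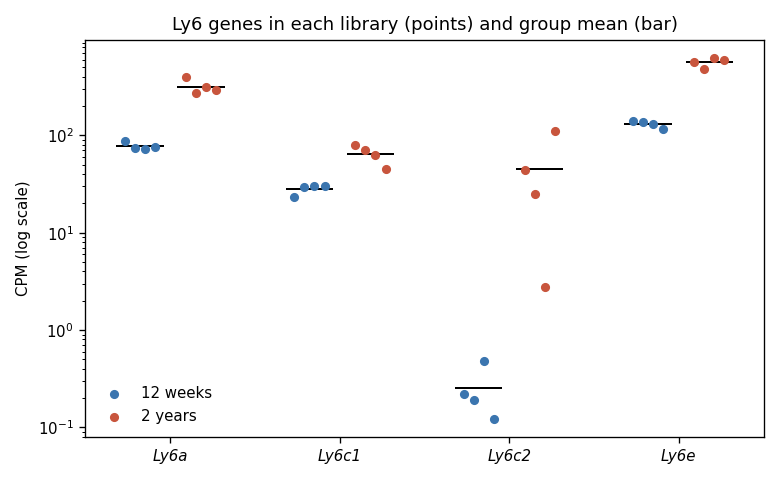
CPM on a log axis for Ly6a, Ly6c1, Ly6c2 and Ly6e in each library (points: blue, 12 weeks; red, 2 years; bars, group means). Ly6c2 spans 2.8 to 109.7 CPM among the 2-year libraries, while Ly6c1 spans 45.2 to 79.5 CPM.

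Ly6a is known to be induced by interferon and is carried by many blood cells and endothelial cells besides fibroblasts. In the same libraries all 12 interferon response genes tested rose (median log2 fold change 3.01), and their summed level was 228.4 to 316.2 CPM at 12 weeks and 1053 to 1602 CPM at 2 years. Irf7, a transcription factor of that response, rose from 6.16 ± 2.39 to 103 ± 24.3 CPM, and Bst2 rose 4.33-fold (log2 fold change 2.12, and 1.33 after the length adjustment). Ly6a and the summed interferon genes were both highest in 2 years replicate 1, but the order of the other libraries differed: the interferon sums of 2 years replicates 2 to 4 were 1228, 1053 and 1281 CPM, and at 12 weeks the sum was highest in replicate 2 and Ly6a in replicate 1. All 12 leukocyte genes also rose (94.1 to 131.8 CPM summed at 12 weeks, 557.4 to 734.1 CPM at 2 years), as did all 10 monocyte and macrophage genes, Ly6c2 among them. Of 12 endothelial genes 2 rose (Sox18, 1.45-fold, and Robo4, 2.21-fold) and 1 fell (Erg, 2.32-fold), not above either background. After the length adjustment Sox18 was at 0.34 and not called (adjusted p in edgeR = 0.0639). The backgrounds for all these lists were 25.8% of genes higher and 26.2% lower. The part of leukocytes, endothelial cells and interferon in the levels of Ly6a and Ly6c1 was not tested. In bulk RNA, more cells of a type and more RNA per cell cannot be told apart.

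Promoter sequences were looked up for all members in a RefSeq table on build GRCm38.p6. It held 6 of the 10 (Pi16, Dpt, Dpp4, Ly6c1, Cd34 and Gsn), with 9 start sites, and did not list Ly6a, Scara5, Clec3b or Cd248. The 250 bases before the first listed start of Ly6c1 (chr15:75048838-75049087, minus strand) and of Ly6c2 (chr15:75111972-75112221, minus strand) are printed because their coding sequences are nearly identical. The part of promoter sequence in their levels was not tested. Capitals mark a match to TATAAA, the letters of the TATA box motif. Distance to the start site was not considered, so a match is of letters only.
Ly6c1: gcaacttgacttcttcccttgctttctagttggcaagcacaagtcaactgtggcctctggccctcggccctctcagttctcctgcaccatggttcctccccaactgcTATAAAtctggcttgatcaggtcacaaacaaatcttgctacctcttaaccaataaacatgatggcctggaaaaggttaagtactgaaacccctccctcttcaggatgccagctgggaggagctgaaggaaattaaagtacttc
Ly6c2: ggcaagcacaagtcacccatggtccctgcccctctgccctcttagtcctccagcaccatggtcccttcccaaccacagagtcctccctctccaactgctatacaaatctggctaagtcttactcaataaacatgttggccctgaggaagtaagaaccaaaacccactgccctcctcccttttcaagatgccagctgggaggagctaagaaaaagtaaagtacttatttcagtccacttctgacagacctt
The windows were searched on both strands for the letters of 6 motifs, at any position. TATAAA was present in windows of Ly6c1 and Dpp4, and in 12.4% of 32841 windows of this length. The interferon-stimulated response element occurred in the Dpp4 window and in 2.98% of all windows. The gamma-activated site, TTCNNNGAA, occurred in the Dpt window and in 7.02% of all windows. The GC box, GGGCGG, was in all 3 windows of Gsn and in 32.8% of all windows. The AP-1 site TGANTCA and the GLI site GACCACCCA were in none of the 9 member windows, and in 6.75% and 0.23% of all windows.

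Cd34 and Cd248 encode heavily glycosylated surface proteins. Cd34 is a sialomucin of progenitor fibroblasts, blood progenitors and endothelium. Its CPM were 240.8, 263.9, 237.4 and 270.4 at 12 weeks and 438.9, 527.0, 428.9 and 546.3 at 2 years, so the groups were well separated and each was narrow. The mean rose from 253 ± 16.5 to 485 ± 60.0 CPM, 1.92-fold (log2 fold change 0.94 ± 0.13 SE, adjusted p in edgeR = 0.000191). It stayed called in every alternative, with log2 fold changes of 0.73 to 1.05 and adjusted p of at most 0.00656. Its relatives did not rise: Podxl was at 44.1 ± 11.5 and 32.1 ± 6.71 CPM (adjusted p = 0.0896), and Podxl2 fell 1.56-fold (adjusted p = 0.0271).

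Cd248, or endosialin, is a C-type lectin-like protein of fibroblasts and pericytes. It stood at 157.7, 155.3, 134.1 and 149.4 CPM at 12 weeks and 149.8, 153.2, 189.3 and 209.3 CPM at 2 years. Replicates 3 and 4 of the older group were above every 12-week library, and the others lay within the 12-week range. The log2 fold change was 0.23 (SE 0.14, adjusted p in edgeR = 0.179). After the length adjustment it was 0.36 with an adjusted p of 0.0484, just inside the threshold. Its 3 relatives Clec14a, Cd93 and Thbd were not called (log2 fold changes 0.34, -0.12 and -0.02). Mmrn2, an endothelial matrix protein that binds some members of this lectin family, was at 48.0 ± 11.2 and 40.1 ± 10.9 CPM (adjusted p = 0.337) and was chosen after its value had been seen.

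Gsn, gelsolin, severs and caps actin filaments inside cells and also exists as a secreted form. It was the most abundant member at 12 weeks and the member that fell most. Its CPM were 1362, 1366, 1817 and 2165 at 12 weeks and 601.0, 534.9, 488.8 and 888.1 at 2 years. No older library reached the lowest of the young ones. The mean fell from 1678 ± 389 to 628 ± 179 CPM, 2.67-fold (log2 fold change -1.42 ± 0.23 SE, adjusted p in edgeR = 0.000426). The value was -1.39 after the length adjustment and lay between -1.63 and -1.27 over all alternatives, called in each.

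Smooth muscle also contains gelsolin. Of 10 smooth muscle contractile genes, 8 fell and 0 rose (median log2 fold change -0.86), and their summed level was 34753 to 41464 CPM at 12 weeks and 19921 to 29319 CPM at 2 years. Myh11 fell 3.3-fold, Smtn 2.54-fold and Mylk 2.15-fold. For Mylk the log2 fold change of -1.10 became -0.45 after the length adjustment and was still called (adjusted p in edgeR = 0.0159). With both that adjustment and the replicate number as a term it was not (adjusted p in edgeR = 0.0588). After the length adjustment 8 of the 10 contractile genes were again lower and 0 higher, against backgrounds of 25.7% and 24.9%. The part of smooth muscle in the level of Gsn was not tested. Of 6 tested gelsolin relatives, Svil (supervillin) fell from 541 ± 36.5 to 162 ± 60.6 CPM. Avil also fell (9.93-fold) but was scarce, at 1.29 and then 0.124 CPM, with only 2 to 5 counts in the 2-year libraries. Capg, an actin-capping protein of macrophages, rose from 43.1 ± 4.48 to 101 ± 7.63 CPM and Vill rose 1.5-fold. Scin and Flii were not called (adjusted p = 0.0771 and 0.144).

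Pi16, peptidase inhibitor 16, is a secreted or anchored protein of the CAP family and the gene most used to name the progenitor state. Its CPM were 320.8, 304.1, 356.7 and 463.3 at 12 weeks and 162.5, 189.1, 313.2 and 158.6 at 2 years. Of the older libraries 3 lay below all young ones, and 2 years replicate 3 lay inside the 12-week range. The mean fell from 361 ± 71.5 to 206 ± 72.8 CPM, 1.76-fold (log2 fold change -0.81 ± 0.23 SE, adjusted p in edgeR = 0.0115). After the length adjustment it was -0.58 and just outside the threshold (adjusted p = 0.0518). Without 2 years replicate 3 it was -1.09 (adjusted p = 0.000363). Of its 4 tested CAP relatives, Glipr1 and Glipr2 rose 1.36-fold and 2.08-fold, and Crispld1 and Crispld2 were not called (adjusted p = 0.255 and 0.264). Glipr1 had the opposite sign after the length adjustment (-0.26, adjusted p = 0.248).

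Dpt, dermatopontin, is a small matrix protein that binds decorin and promotes collagen fibril assembly. Its CPM were 211.0, 269.9, 249.7 and 309.6 at 12 weeks and 105.1, 157.7, 364.1 and 198.5 at 2 years. The 2-year group held both the lowest 3 values and the highest value of all 8 libraries, that of replicate 3. With all libraries the log2 fold change was -0.33 (SE 0.32, adjusted p in edgeR = 0.402), and after the length adjustment -0.80 (adjusted p = 0.07). Without 2 years replicate 3 it was -0.76 and called (adjusted p = 0.0102), and with that library out and the length adjustment it was -1.21 (adjusted p = 0.00167).

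Clec3b, or tetranectin, is a secreted lectin-like protein that binds plasminogen. It was at 135.4, 88.3, 119.8 and 149.0 CPM in the young and 104.4, 130.2, 164.0 and 81.9 CPM in the old libraries, ranges that overlapped almost fully. The log2 fold change was -0.04 (SE 0.22, adjusted p in edgeR = 0.898). Its transcript is 992 nt long, and after the length adjustment the value was -0.57 and called lower (adjusted p = 0.0109). Its relative Clec11a rose from 37.1 ± 4.94 to 65.9 ± 25.8 CPM (adjusted p = 0.0107). The plasminogen activator Plau rose 1.9-fold (adjusted p = 0.00312), and was chosen after its value had been seen.

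**Figure D3:**
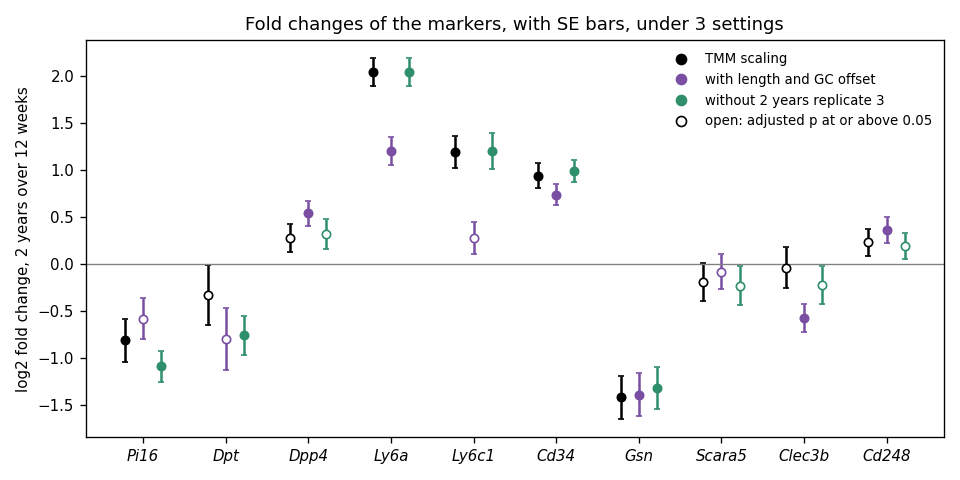
Log2 fold change (2 years over 12 weeks) of each marker with its SE as a bar, for TMM scaling, after the length adjustment (offset in the legend), and without 2 years replicate 3; filled points have an adjusted p below 0.05. Ly6a, Cd34 and Gsn are filled in all 3, Ly6c1 drops from 1.19 to 0.28 after that adjustment, and Dpt goes from -0.33 to -0.76 without the library.

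Dpp4 (CD26) is a surface peptidase that trims the ends of chemokines and incretins. It was the least abundant member per kilobase of transcript at both ages, though in CPM Ly6c1 was as low at 12 weeks (means 28.6 for Dpp4 and 28.3 for Ly6c1). It was at 24.9, 32.0, 30.7 and 26.9 CPM at 12 weeks and 38.5, 41.2, 31.4 and 27.5 CPM at 2 years. Replicates 1 and 2 of the older group were above all young libraries, and replicates 3 and 4 lay within their range. The log2 fold change was 0.28 (SE 0.15, adjusted p in edgeR = 0.146). The Dpp4 transcript is long, 5268 nt, and after the length adjustment the value was 0.54 and called higher (adjusted p = 0.00486). Cxcl12, a chemokine that Dpp4 cleaves, rose from 233 ± 21.3 to 734 ± 172 CPM (3.16-fold, adjusted p = 3.12e-05). Among 6 tested relatives Dpp7 rose 1.85-fold and Dpp10 fell 1.54-fold, while Fap, Dpp8, Dpp9 and Prep were not called (adjusted p from 0.171 to 0.889). Prep was called higher after that adjustment (0.85), and Dpp10 then had the opposite sign (0.55, adjusted p = 0.106).

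Scara5 is a scavenger receptor that takes up ferritin. Its CPM were 104.2, 151.4, 192.1 and 218.2 at 12 weeks and 133.9, 148.8, 156.6 and 143.3 at 2 years. The older libraries lay in a narrow band inside the wide 12-week range. The log2 fold change was -0.19 (SE 0.20, adjusted p in edgeR = 0.435), and no alternative called it (adjusted p from 0.0631 to 0.996). The length-adjusted value was -0.08. The ferritin chains that are its known cargo rose, Fth1 from 2164 ± 256 to 4990 ± 472 CPM and Ftl1 from 426 ± 101 to 1472 ± 433 CPM (2.31-fold and 3.45-fold). After the length adjustment Ftl1 had a log2 fold change of 1.18, against 1.79 before it. Both were chosen after their values had been seen. Of the 22 tested ligands, substrates and partners of the members as a whole, 11 rose and 1 fell (Bmp1, a procollagen-processing protease, 2.95-fold), against backgrounds of 25.8% and 26.2%. After the length adjustment 12 were higher and 3 lower, against 24.9% and 25.7%. Of 3 tested relatives, the macrophage receptor Msr1 rose 3.83-fold, and Colec12 and Scara3 were not called (adjusted p = 0.139 and 0.507).

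How many members passed depended on the adjustment for transcript length and on 2 years replicate 3. After the length adjustment 6 were called, of which Ly6a, Cd34, Dpp4 and Cd248 were higher and Gsn and Clec3b lower. The backgrounds were then 50.6% of genes called, 24.9% higher and 25.7% lower. With that library left out and no adjustment, 3 members were higher and 3 lower, Dpt having joined Pi16 and Gsn, against 52.6% of genes called, 25.6% higher and 26.9% lower. Adding the replicate number as a term kept the same 5 calls, with 46.0% of genes called, 22.3% higher and 23.8% lower. With both the length adjustment and that term, Ly6a, Cd34 and Dpp4 were higher and Gsn, Clec3b, Pi16 and Dpt lower, against 44.3% called, 21.6% higher and 22.6% lower. Ly6a and Cd34 were higher and Gsn was lower in all of these fits.

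The order of the members by level, in CPM per kilobase of transcript, differed between the ages. At 12 weeks Gsn led at 632.3, followed by Dpt (150.8), Clec3b (124.1), Cd34 (99.1), Pi16 (90.4), Ly6a (81.1), Cd248 (57.2), Scara5 (43.9), Ly6c1 (33.5) and Dpp4 (5.43). Neighbours in this order overlapped in range except between Gsn and Dpt, Ly6a and Cd248, and Ly6c1 and Dpp4. At 2 years Ly6a led at 332.8, followed by Gsn (236.8), Cd34 (190.0), Clec3b (121.1), Dpt (119.7), Ly6c1 (76.4), Cd248 (67.3), Pi16 (51.5), Scara5 (38.4) and Dpp4 (6.58). These levels carry no length adjustment, and the order was not drawn up with it. Length-adjusted log2 fold changes, 1.2 for Ly6a and -1.39 for Gsn, do not give levels at a single age. The ranges of Ly6a and Gsn overlapped at 2 years. At 2 years the neighbours without overlap were Cd34 and Clec3b, and Scara5 and Dpp4. The range of Dpt, ranked below Clec3b, was 60.95 to 211.2 and so still overlapped that of Cd34 (167.9 to 213.9). Within a library, the ratio of Ly6a to Pi16 CPM lay between 0.164 and 0.272 at 12 weeks and between 0.999 and 2.46 at 2 years. The ratio of Cd34 to Pi16 likewise went from 0.584 to 0.868 at 12 weeks to between 1.37 and 3.44 at 2 years. Both set a member called higher over one called lower, so their separation follows in part from those calls. Cd34 to Ly6a also separated (2.76 to 3.56 at 12 weeks, 1.1 to 1.96 at 2 years). The ages overlapped for Dpp4 to Pi16 (0.058 to 0.105 and 0.1 to 0.237) and Pi16 to Dpt (1.13 to 1.52 and 0.799 to 1.55). None of these ratios carries a length adjustment.

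To describe the markers against fibroblast RNA in general, each was divided by the geometric mean of the 12 pan-fibroblast genes. That mean was 633.2, 616.3, 536.1 and 595.3 CPM in the 12-week and 447.5, 489.8, 815.5 and 569.9 CPM in the 2-year libraries, highest in 2 years replicate 3. Of the 12 genes, 1 rose (Thy1, 2.72-fold), 1 fell (Serpinf1, 1.81-fold) and 10 were not called; without 2 years replicate 3, 5 fell. Relative to this mean Pi16 no longer overlapped between the ages, at 0.493 to 0.778 in the young and 0.278 to 0.386 in the old libraries. The ratio in 2 years replicate 3, at 0.384, lay with the other old libraries. Ly6a, Ly6c1, Cd34 and Gsn also did not overlap on this scale, and the other 5 did. The share of all genes without overlap on this scale was not computed, and in CPM it was 49.6%. These ratios carry no length adjustment. When libraries were scaled to these genes before the edgeR test, which moved the median of all genes by 0.11, the same 5 members were called in the same directions. The log2 fold changes were 2.16 for Ly6a, 1.32 for Ly6c1, 1.05 for Cd34, -0.79 for Pi16 and -1.31 for Gsn, and 36.6% of all genes were then called, 21.2% higher and 15.4% lower. With the length adjustment added to this scaling, the members called were others in part: Ly6a, Cd34 and Dpp4 were higher and Gsn and Dpt lower, against 31.5% of genes called, 18.8% higher and 12.6% lower. Pdgfra, a pan-fibroblast receptor chosen after its value had been seen, was at 218 ± 21.7 and 190 ± 16.3 CPM (adjusted p = 0.209).

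**Figure D4:**
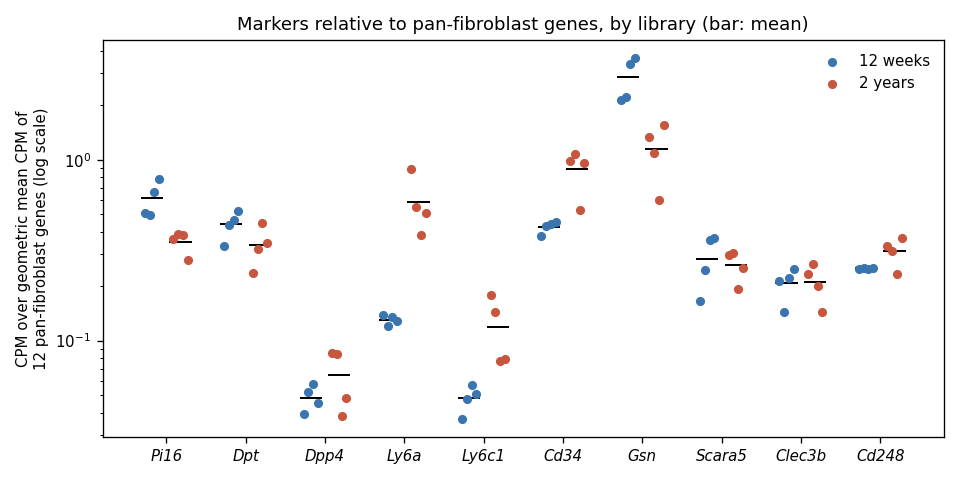
CPM of each marker divided by the geometric mean CPM of 12 pan-fibroblast genes in the same library (log axis; points, libraries; bars, group means). Pi16, Ly6a, Ly6c1, Cd34 and Gsn show no overlap between 12 weeks (blue) and 2 years (red). The share of all genes without overlap on this scale was not computed.

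Within an age the markers varied in different libraries. In 2 years replicate 3, Pi16, Dpt and Clec3b stood 0.66, 0.97 and 0.50 above their group mean on the log2 scale, whereas Gsn stood at -0.32 and Cd34 at -0.17. This is the library with the highest summed pan-fibroblast and mesothelial genes, and the part of either in these levels was not tested. At 12 weeks, replicate 4 was the highest library for 6 members (Pi16, Dpt, Cd34, Gsn, Scara5 and Clec3b), and replicate 1 was the lowest for 5. Scara5 ranged from -0.62 in replicate 1 to 0.44 in replicate 4. Across the 8 deviations, the correlation with the mean deviation of all members, which includes each gene itself, was 0.92 for Pi16, 0.80 for Scara5, 0.74 for Dpt and 0.65 for Clec3b. It was between -0.32 and 0.26 for Ly6a, Ly6c1, Cd34, Gsn, Dpp4 and Cd248. These correlations describe 8 libraries, in which all genes share depth and scaling. Of non-member genes averaging 10 CPM or more, those whose deviations were most like the mean of the members were Fndc1 (Pearson r 0.97), then C1qtnf1, Kcnj8, Angptl2 and Ccbe1 (0.95 each).

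**Figure D5:**
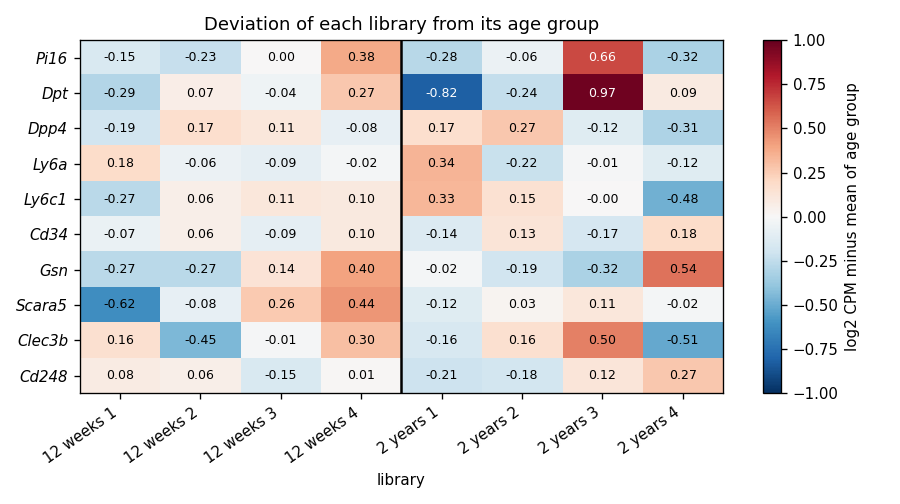
Log2 CPM of each marker minus the mean of its age group, for every library (red, above; blue, below; the line separates the ages). Dpt and Pi16 are highest in 2 years replicate 3, at 0.97 and 0.66, where Gsn is at -0.32.

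Other fibroblast genes were called in both directions, at shares to be read against the backgrounds of 25.8% higher and 26.2% lower. Of 18 further genes of adventitial progenitors, 3 rose and 4 fell, which is not above either background. The transcriptional regulator Creb5 was at 73.2 ± 11.6 CPM in the young and 29.6 ± 2.48 CPM in the old libraries, a fall of 2.48-fold (adjusted p in edgeR = 3.09e-05), and Limch1, an actomyosin regulator, fell 2.56-fold. Uchl1, a ubiquitin hydrolase, rose from 95.6 ± 30.1 to 192 ± 29.8 CPM. Of 14 genes that mark other fibroblast states, 5 rose and 4 fell. The chemokine Cxcl14 rose from 0.226 ± 0.121 to 8.52 ± 4.06 CPM, and the basement membrane protein Hmcn2 fell 8.01-fold (log2 fold change -3.0, and -1.48 after the length adjustment). Of 13 tested genes of activated fibroblasts, 5 rose and 1 fell. Postn, periostin, fell 3.2-fold (adjusted p = 0.000158), while the regulator Meox1 rose 3.58-fold and Ddah1 rose 4.55-fold.

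Hedgehog signalling genes, which are active in the adventitial niche of Sca-1 cells, did not rise with TMM scaling. Of 13 tested, 7 fell, Ptch1, Gli1 and Gli2 among them, and 0 rose, against backgrounds of 26.2% and 25.8%, with a median log2 fold change of -0.42. Shh, named after its value had been seen, had 0 counts in all libraries. Gli1, a target and effector of the pathway, was at 35.1, 20.7, 29.2 and 30.5 CPM at 12 weeks and 5.65, 4.82, 7.22 and 7.22 CPM at 2 years, so the highest old library was far below the lowest young one. Its mean fell 4.65-fold (log2 fold change -2.22 ± 0.20 SE, adjusted p in edgeR = 7.84e-06), and -1.85 remained after the length adjustment. Gli2 fell 2.61-fold (log2 fold change -1.38, and -0.73 after the length adjustment), and Ptch1, the receptor and target, 1.75-fold. After the length adjustment 3 of the 13 fell and 1 rose, against backgrounds of 25.7% and 24.9%, so the list was then not above either background. Ptch1 was at -0.22 and not called.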

How the data were processed

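The submitters deposited a table of raw counts per gene symbol for each of the 8 libraries, per the file headers and the labels. RNA was isolated with a column kit, per the labels' protocols, and the submitters' processing notes name the build GRCm39. Aligner, counter, annotation and strand handling were not given in the sources used here. Tests on these counts used edgeR 4.0.16 (R 4.3.3; filterByExpr defaults, TMM, robust quasi-likelihood F test, age as the only term) on 13978 genes, with Benjamini-Hochberg adjustment. DESeq2 1.42.0 and limma 3.58.1 (voom) were alternatives, as were other scalings, filters, left-out libraries, the replicate number as a term and a length and GC offset, the length adjustment (natural splines with 4 degrees of freedom each; longest coding transcripts of GENCODE M21, found for 13845 of the genes tested). List scalings used the geometric mean of the list's genes. The pipeline was tested on simulated data. No library was a copy of another: chi-square per degree of freedom between same-age libraries was 22.5 to 144.6.

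The members and lists were chosen with earlier results of these data known. Beyond the members, the rule for named genes takes up to 3 called genes with the smallest p in each list (up to 2 of the highest CPM where none was called), all tested family relatives and the genes most alike in within-age deviations. Genes outside it are marked where they are named: Mmrn2, Plau, Fth1, Ftl1 and Pdgfra, and also Shh. Some genes of the lists are counted but not reported here by name.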

Additional observations from a re-analysis of the deposited data

Results flagged for a closer look

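Of 178 groups of 4 libraries examined for the members and the other named genes, 14 held a library whose gap to its nearest neighbour passed Dixon's 95% limit; chance does so for about 1 group in 20. The only member was Ly6c1, at 23.28 CPM in 12 weeks replicate 1 against 29.34 to 30.29 CPM in the others. The same library stood apart for Uchl1 (140.2 CPM, others 75.23 to 85.44), Bst2 (19.13, others 14.61 to 15.29), Glipr2 (37.17, others 24.89 to 26.88) and Bmp1 (210.1, others 154.5 to 158.5). Bmp1 was named as a partner of the members. In 12 weeks replicate 3, Myh6 was at 428.2 CPM (others 6.77 to 19.79), Tnni3 at 34.29 CPM (others 1.57 to 3.00) and Ly6i at 0.1849 CPM (others at 0). In 2 years replicate 1, Myh6 was at 8.73 CPM (others 0.729 to 1.96) and Capg at 89.21 CPM (others 103.4 to 105.2). In 2 years replicate 3, S100b was at 18.4 CPM (others 6.93 to 8.15) and Crispld2 at 399.6 CPM (others 196.7 to 226.4). Lgals3bp was at 305.9 CPM in 2 years replicate 4 (others 247.6 to 249.3). Plau was at 24.82 CPM in 2 years replicate 2 (others 35.76 to 36.6).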

How the results depend on the processing

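With all libraries, 3 members were called higher and 2 lower. Leaving out a single library gave 3 higher each time and 2 to 3 lower, and 3096 to 3620 genes higher and 3201 to 3801 lower, against 3611 and 3661. With the length and GC offset 4 members were higher (Ly6a, Cd34, Dpp4, Cd248) and 2 lower (Gsn, Clec3b). Same-numbered libraries did not deviate together (correlations of -0.308, -0.116, 0.0511 and 0.0253), and no library correlated best with its own number. The replicate block left the 3 and 2 members as they were and gave 3112 and 3320 genes; with the length and GC offset and the replicate block 4 members were lower (Gsn, Clec3b, Pi16, Dpt). In alternatives added after seeing the data, 4 were also lower without 2 years replicate 3 and with the offset, and 3 were higher. In that fit 3904 genes were lower and 3681 higher, of 14120 tested. Scaling to pan-fibroblast genes gave 2151 genes lower and 2960 higher, and with the offset 1768 lower and 2634 higher, when Pi16 and Ly6c1 lost their calls and Dpp4 and Dpt gained them; the cause was not tested. Dpp10 reversed to 0.55 with the offset, 0.53 with the block too, 0.68 with pan-fibroblast scaling and 0.54 without 2 years replicate 3, and Glipr1 to -0.26, -0.27, -0.13 and -0.16. Other scalings, no low-count filter, DESeq2 and limma voom changed no member's call.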
